A study of Mus musculus with 12 samples.

Results

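Soluble guanylate cyclase, cGMP-dependent protein kinase, the cGMP-specific phosphodiesterase and the natriuretic peptide receptors were followed as 9 genes, Gucy1a1, Gucy1a2, Gucy1b1, Prkg1, Prkg2, Pde5a, Npr1, Npr2 and Npr3, out of 32168 genes in the table. They were taken by name from the count table. The group was chosen by the Gucy1a1 counts, which were higher under CP1 than in DMSO in both genotypes, so all values of Gucy1a1 are given as a description with no test. The other 8 genes were named for their place in the pathway.

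Total RNA came from mouse embryonic fibroblasts (MEF) of E13.5 embryos at passage 4 to 10, either wild type (WT) or lacking both Lats1 and Lats2 (DKO). Cells received MGH-CP1 (CP1 below) at 1 uM or its vehicle DMSO for 2 or 4 days, which gave 12 libraries in 8 groups of genotype, treatment and day; a CP1 group has 2 repeats, whereas a DMSO group is a single library. The labels do not say how the knockout was made, whether each genotype is 1 line or clone, or whether repeats came from separate cultures, so p-values measure only the spread between these libraries. For the same reason the genotype and the origin of the lines cannot be told apart. Lats1 and Lats2 are the kinases of the Hippo pathway that restrain the co-activators YAP and TAZ, and MGH-CP1 is an inhibitor of the palmitoylation of TEAD, the transcription factors to which YAP and TAZ bind.

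Cyclic GMP is made by soluble and by membrane guanylate cyclases. The soluble enzyme is a dimer of an alpha subunit (Gucy1a1 or Gucy1a2) and the beta subunit Gucy1b1 whose haem binds nitric oxide, while Npr1 and Npr2 are membrane receptors whose own cyclase domain is switched on by natriuretic peptides. Npr3 binds the same peptides without a cyclase domain and clears them, Prkg1 and Prkg2 are the kinases that cGMP activates, and Pde5a hydrolyses cGMP. In connective tissue and vessel wall the pathway is known for relaxing contractile cells and, in growing bone, for the action of C-type natriuretic peptide through Npr2.

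Library totals ran from 16970834 to 25299262 counts. Lats1 and Lats2 are given relative to their mean level over the WT DMSO libraries. For Lats1, DKO DMSO libraries held 14.3 and 22.1% and DKO CP1 libraries 31.2 to 35.6%, so the treatments did not overlap. For Lats2, all 6 DKO libraries lay within 26.3 to 31.1%, and the DKO CP1 range enclosed both DKO DMSO libraries. WT CP1 libraries kept 82.5 to 94.1% of Lats1 and 76.9 to 87.0% of Lats2. Why Lats1 differed between treatments in DKO was not tested. The WT DMSO libraries of day 2 and day 4 were closer to each other (chi-square 1.95 per degree of freedom) than any repeat pair of 1 group (2.25 to 50.6, the last for WT CP1 at day 2), so the spread between WT DMSO libraries is narrow. That between the DKO DMSO libraries of day 2 and day 4 was wide, at a chi-square of 43.8 per degree of freedom. The fibroblast label was checked on 12 markers. Their summed level was 29922 to 30637 CPM (the usual count per library size, here after TMM scaling) in WT DMSO, 20280 to 26774 in WT CP1, 11621 to 11807 in DKO DMSO and 16243 to 21603 in DKO CP1. All 12 reached 1 CPM in WT, whereas 9 did so in DKO DMSO, where Thy1 and Fap had 0 counts.

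In WT cells all 3 soluble cyclase subunits were expressed at a low level. In DKO cells Gucy1b1 was near 0 under both treatments and Gucy1a1 was near 0 in DMSO but not under CP1, while the range of Gucy1a2 overlapped that of WT. Gucy1a1, the alpha 1 subunit, stood at 5.28 and 4.68 CPM in WT DMSO at day 2 and day 4. Under CP1 the WT libraries held 22.6 and 24.3 CPM at day 2 and 17.7 and 17.6 CPM at day 4. The 2 DKO DMSO libraries held 0.116 and 0.117 CPM, which is 2 counts each. In DKO CP1 the values were 1.11 and 1.24 CPM at day 2 and 1.88 and 2.46 CPM at day 4. The 4 kinds of library did not overlap, in the order WT CP1, WT DMSO, DKO CP1, DKO DMSO. Days stood apart from each other under CP1 in both genotypes, whereas the DKO DMSO libraries of day 2 and day 4 had equal counts. The level in DKO CP1 reached 22.3 to 49.4% of the WT DMSO mean.

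The fitted log2 difference of Gucy1a1 between DKO and WT was -5.40 in DMSO (SE 0.34) and -3.67 under CP1 (SE 0.12). From the summed counts, WT DMSO was 42.7-fold above DKO DMSO (95% counting interval 16.4 to 158). CP1 minus DMSO was 2.03 in WT (SE 0.14) and 3.76 in DKO (SE 0.38) on the log2 scale. In DKO that ratio rests on 132 counts against 4 and was 14.4-fold with a counting interval of 5.51 to 53.8. Counting intervals cover counting error only.

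Gucy1b1, the beta subunit without which neither alpha subunit forms an active enzyme, stood at 2.35 and 2.26 CPM in WT DMSO. WT CP1 libraries held 6.91 and 6.66 CPM at day 2 and 5.65 and 4.67 CPM at day 4. In DKO cells it had 0 counts in both DMSO libraries, and 2, 3, 0 and 4 counts in the 4 CP1 libraries (0.111, 0.162, 0 and 0.224 CPM). Every WT library stood above every DKO library. It passed the filter on low counts only through its WT libraries, so the difference between genotypes is a description with no test. In DMSO, WT was at least 26.4-fold higher against a floor of 3 counts over the DKO DMSO group. Under CP1, WT was 51.7-fold above DKO (counting interval 27.0 to 114).

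CP1 raised Gucy1b1 in WT by 1.36 on the log2 scale (SE 0.27, adjusted p = 0.00426), with all 4 CP1 libraries above both DMSO libraries. The ratio of CP1 to DMSO in CPM was 2.89 at day 2 and 2.28 at day 4. Without the WT DMSO library of day 2 the value was 1.19 and the adjusted p was 0.0916. In DKO the CP1 libraries overlapped the DMSO libraries at 0 (adjusted p = 0.0696). Without DKO CP1 day 4 repeat 1 the adjusted p was 0.0115, but this is the CP1 library with 0 counts, and leaving it out removes the overlap. The summed level in DKO CP1 was at least 1.31-fold above the floor of 3 counts over the DMSO group.

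Gucy1a2, the alternative alpha 2 subunit, differed from its partners. Its range was 5.36 to 6.99 CPM in WT DMSO, 5.29 to 7.84 CPM in WT CP1, 4.36 to 7.31 CPM in DKO DMSO and 6.45 to 8.998 CPM in DKO CP1, and these ranges overlapped. The log2 difference between DKO and WT was -0.11 in DMSO (SE 0.22, adjusted p = 0.663) and 0.17 under CP1 (SE 0.15, adjusted p = 0.338). CP1 minus DMSO was 0.14 in WT (SE 0.18, adjusted p = 0.663) and 0.43 in DKO (SE 0.19, adjusted p = 0.0779). The DKO value passed the threshold without WT CP1 day 2 repeat 2 (0.43, adjusted p = 0.0436) or without the DKO DMSO library of day 4 (0.65, adjusted p = 0.044).

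Compared per kilobase of exon, the make-up of the alpha subunits differed between the groups. Gucy1a1 made up 41.9 and 45.4% of the summed alpha subunit level in the WT DMSO libraries and 68.3 to 81.4% in WT CP1. The share was 2.48 and 1.504% in DKO DMSO and 14.1 to 21.99% in DKO CP1. The 4 kinds of library did not overlap in this share, which follows from the CP1 values of Gucy1a1 and is a description. Per kilobase, Gucy1b1 stood at 0.598 and 0.576 CPM in WT DMSO and at 1.19 to 1.76 CPM in WT CP1, below the summed alpha level in each library.

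**Figure D1:**
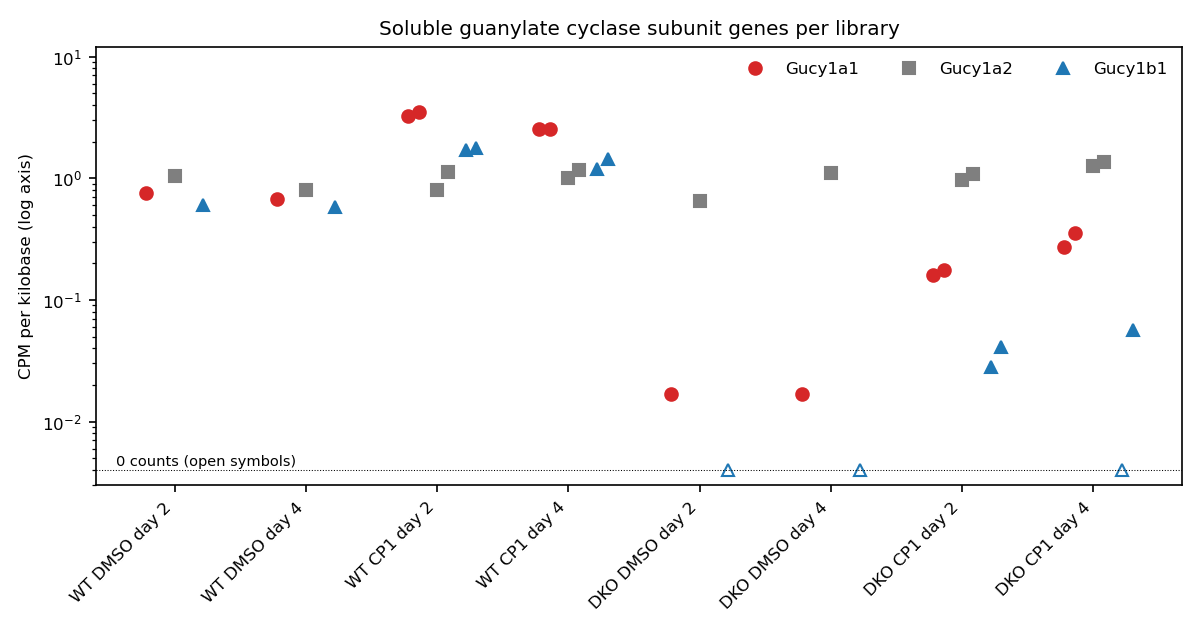
Level of the 3 soluble guanylate cyclase subunit genes (CPM per kilobase of exon, log axis) in each of the 12 libraries by group; each symbol is 1 library and open symbols on the dotted line mark 0 counts. Gucy1a1 and Gucy1b1 stand higher in WT CP1 than in WT DMSO and far lower in DKO, while Gucy1a2 stays near 1 CPM per kilobase in all groups.

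Gucy1a1 and Gucy1b1 are neighbours. On mm10 Gucy1b1 lies at chr3:82032006-82074689 and Gucy1a1 at chr3:82092427-82145789, both on the minus strand, 17737 bases apart with 0 protein-coding genes between them. The next protein-coding genes outward are Tdo2, 55804 bases from Gucy1b1, and Map9, 212255 bases from Gucy1a1. Map9, a microtubule-associated protein gene, was lower in DKO than in WT in DMSO (-1.26, SE 0.22, adjusted p = 0.000238) and higher under CP1 in DKO (1.44, SE 0.20, adjusted p = 6.13e-05). In WT its CP1 value was 0.39 (SE 0.17, adjusted p = 0.141). Tdo2, a tryptophan dioxygenase gene, had means of 0.613 CPM in WT DMSO, 0.976 CPM in WT CP1, 0 in DKO DMSO and 0.228 CPM in DKO CP1. Its DKO levels were near 0, so its difference between genotypes is a description with no test, as for Gucy1b1. Under CP1 the log2 difference between DKO and WT was -2.02 (SE 0.65).

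RefSeq promoter windows (GRCm38.p6, 250 bases before a start site) were found for 8 of the 9 genes, 10 windows in all, with none for Prkg2. The windows of the neighbouring subunit genes are shown because both genes were low in DKO and high in WT CP1. For Gucy1a1, with 2 RefSeq start sites, the longest run of each window outside GENCODE exons is shown, chr3:82145790-82145900 and chr3:82145074-82145262. The bases after the start lay in a GENCODE transcript of the gene for 7 of the 10 windows, but not for the outer Gucy1a1 start. The run shown for that outer window stops short of its start. The Gucy1b1 window is chr3:82074712-82074961. All are read 5′ to 3′ on the minus strand, and capitals mark a CCAAT box, which here reads ATTGG because it lies on the other strand.
Gucy1a1 outer start: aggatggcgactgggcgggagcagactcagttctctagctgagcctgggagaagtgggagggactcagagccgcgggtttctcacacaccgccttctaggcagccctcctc
Gucy1a1 inner start: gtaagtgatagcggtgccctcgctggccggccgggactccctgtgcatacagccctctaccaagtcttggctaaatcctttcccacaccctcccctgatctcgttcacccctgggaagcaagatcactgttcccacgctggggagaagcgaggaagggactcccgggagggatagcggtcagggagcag
Gucy1b1: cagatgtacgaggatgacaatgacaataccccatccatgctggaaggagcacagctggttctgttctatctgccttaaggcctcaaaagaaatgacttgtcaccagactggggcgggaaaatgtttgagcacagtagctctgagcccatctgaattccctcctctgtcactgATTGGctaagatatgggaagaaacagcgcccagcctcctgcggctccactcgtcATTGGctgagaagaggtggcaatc

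Both strands of the 10 windows were searched for 4 motifs whose matches did not overlap. The core bound by TEAD reads GGAATG. The site bound by AP-1 reads TGANTCA, and the TATA box was searched as TATAAA. These 3 motifs were in 0 of the 10 windows, against 12.6, 6.75 and 12.4% of all 32851 promoter windows. The CCAAT box, searched as these 5 letters, was in windows of Gucy1a2, Gucy1b1, Prkg1, Npr1 and Npr3, against 33.8% of all windows. Gucy1b1 held it at 78 to 74 and 24 to 20 bases before its start, and neither Gucy1a1 window held it. A match is a description of these letters and not of binding.

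Counted over the 7 genes other than Gucy1a1 and Gucy1b1, DKO minus WT in DMSO gave 2 higher and 3 lower, and the libraries of 5 did not overlap. Over all 16595 genes tested 67.5% were called (32.7% higher, 34.8% lower) and 81.0% did not overlap. DKO minus WT under CP1 gave 3 higher and 2 lower, with 5 not overlapping, against 59.5% of all genes called (28.9% higher, 30.6% lower) and 55.5% not overlapping. The shares called, 5 of 7 in each, lie near those of all genes.

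For CP1 in WT, 1 of the 8 genes other than Gucy1a1 was called higher and 3 lower, and 5 did not overlap, against 17.8% of all genes called (7.5% higher, 10.3% lower) and 46.0% not overlapping. Without the WT DMSO library of day 2 fewer of these genes were called, and fewer of all genes as well. For CP1 in DKO, 3 of 8 were higher and 1 lower, and 4 did not overlap, against 51.9% of all genes called (24.2% higher, 27.6% lower) and 55.0% not overlapping, so that the DKO share lies near that of all genes. The CP1 effect was higher in DKO than in WT for 4 of 8 and lower for 0 in edgeR, against 42.4% of all genes called (20.1% higher, 22.3% lower). At an unadjusted p under 0.05, 5 were higher and 0 lower in edgeR, against 24.3 and 25.7% of all genes. In DESeq2 they were 6 and 0, against 24 and 23.3% of all genes. With limma on log2(TPM + 1), 5 were called higher and 1, Gucy1b1, lower. Of all 16595 genes 5552 were called higher and 526 lower there, with a median of 0.38, so values over all genes leaned upward in this setting. The largest gene was CT010467.1 in WT CP1 day 2 repeat 1 (2.61% of counts) and at day 4 (2.18 and 2.06%). In WT CP1 day 2 repeat 2 it was Col1a1 (0.836%). The part of CT010467.1 in the TPM values was not tested. Several comparisons share libraries, such as the WT DMSO libraries, and are therefore not independent of each other.

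**Figure D2:**
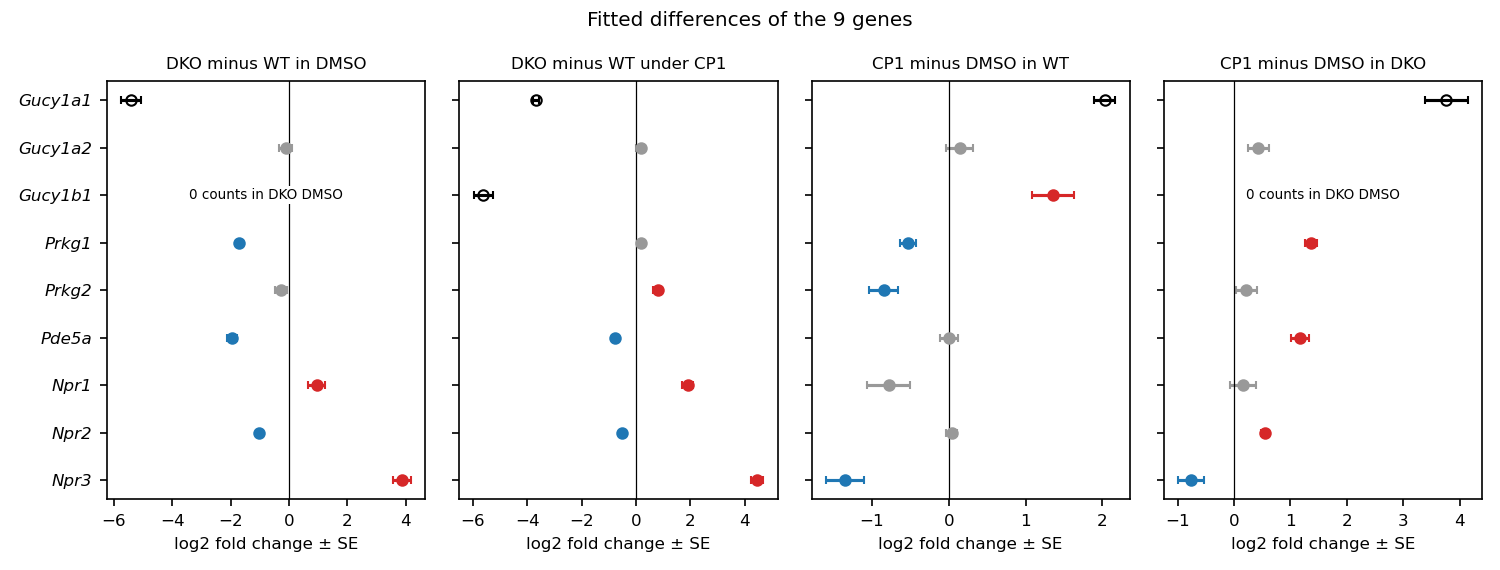
Fitted log2 fold changes (horizontal axis, bars are SE) of the 9 genes in 4 comparisons; red is called higher, blue called lower, grey not called, and the open black circles, of Gucy1a1 and of Gucy1b1 between genotypes under CP1, are a description with no test. Gucy1b1 has no fold change against DKO DMSO, where it had 0 counts, and the axes differ between panels.

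The kinases followed another course. Prkg1, the kinase of smooth muscle, platelets and fibroblasts, stood at 31.1 and 27.9 CPM in WT DMSO, and at 6.81 CPM at day 2 and 11.98 CPM at day 4 in DKO DMSO. WT CP1 libraries held 20.8 and 22.6 CPM at day 2 and 18.3 and 20.1 CPM at day 4. DKO CP1 libraries held 20.02 and 17.2 CPM at day 2 and 27.2 and 31.6 CPM at day 4. CP1 libraries were thus below DMSO libraries in WT and above them in DKO, without overlap in either.

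Prkg1 was lower in DKO than in WT in DMSO by a log2 difference of -1.70 (SE 0.12, adjusted p = 7.19e-08). CP1 lowered it in WT (-0.53, SE 0.10, adjusted p = 0.00194) and raised it in DKO (1.36, SE 0.11, adjusted p = 8.76e-07), and the difference of these effects was 1.89 (SE 0.15, adjusted p = 1.04e-06). Under CP1 the genotypes overlapped, with a difference of 0.19 (SE 0.08, adjusted p = 0.0522). That last value passed the threshold without any 1 of 4 libraries, DKO CP1 day 2 repeat 2 (0.23, adjusted p = 0.0405), DKO CP1 day 4 repeat 1 (0.25, adjusted p = 0.0263) and the DKO DMSO libraries of day 2 (0.20, adjusted p = 0.0213) and day 4 (0.19, adjusted p = 0.022). Cstf2t, a protein-coding gene inside Prkg1 on the opposite strand, was at 77.1 to 96.9 CPM. The sources used here give no strand setting, so reads from the overlap cannot be told apart.

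Prkg2, the membrane-bound kinase known from intestine and growth plate, stood at 62.4 and 60.9 CPM in WT DMSO. WT CP1 held 29.8 and 26.4 CPM at day 2 and 41.0 and 42.4 CPM at day 4. The DKO DMSO libraries held 40.7 CPM at day 2 and 62.7 CPM at day 4, and DKO CP1 held 67.7, 62.9, 56.2 and 53.2 CPM. WT CP1 libraries were below both WT DMSO libraries and below all DKO CP1 libraries, and the DKO DMSO range enclosed all but 2 of the DKO CP1 libraries.

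CP1 lowered Prkg2 in WT by a log2 change of -0.85 (SE 0.19, adjusted p = 0.0123). Without the WT DMSO library of day 2 the value was -0.55, and without that of day 4 it was -1.15. The ratio of CP1 to DMSO in CPM was 0.450 at day 2 and 0.684 at day 4 in WT. In DKO the CP1 value was 0.22 (SE 0.19, adjusted p = 0.377). It was 0.68 without the DKO DMSO library of day 4 and -0.19 without that of day 2. The days thus went in opposite directions in DKO, with a CP1 to DMSO ratio of 1.60 at day 2 and 0.872 at day 4. The difference of the CP1 effects was 1.07 (SE 0.27, adjusted p = 0.011), 0.77 (adjusted p = 0.0597) without the WT DMSO library of day 2 and 0.66 (adjusted p = 0.0294) without the DKO DMSO library of day 2. DKO was above WT under CP1 (0.80, SE 0.16, adjusted p = 0.00158). In DMSO the value was -0.27 (SE 0.22, adjusted p = 0.304), or -0.73 (adjusted p = 0.00668) without the DKO DMSO library of day 4.

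Per kilobase of exon Prkg2 was the higher of the kinase genes in all 12 libraries. The ratio of Prkg2 to Prkg1 was 4.06 and 4.42 in WT DMSO and 2.36 to 4.54 in WT CP1. It was 12.1 and 10.6 in DKO DMSO and 3.41 to 7.41 in DKO CP1, so that DKO DMSO libraries stood above all others.

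Pde5a, the phosphodiesterase blocked by sildenafil, stood at 13.6 and 13.48 CPM in WT DMSO and at 15.6, 14.7, 12.03 and 12.2 CPM in WT CP1. DKO DMSO held 3.03 CPM at day 2 and 4.03 CPM at day 4, and DKO CP1 held 7.79, 8.61, 7.83 and 7.66 CPM. Every DKO library was below every WT library, and DKO CP1 stood between DKO DMSO and WT. Pde5a was lower in DKO by -1.94 in DMSO (SE 0.17, adjusted p = 3.14e-07) and by -0.77 under CP1 (SE 0.10, adjusted p = 2.92e-05) on the log2 scale. CP1 raised it in DKO (1.17, SE 0.16, adjusted p = 4.19e-05). In WT the value was 0.00 (SE 0.12, adjusted p = 0.994), and the difference of effects was 1.18 (SE 0.20, adjusted p = 0.000426).

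**Figure D3:**
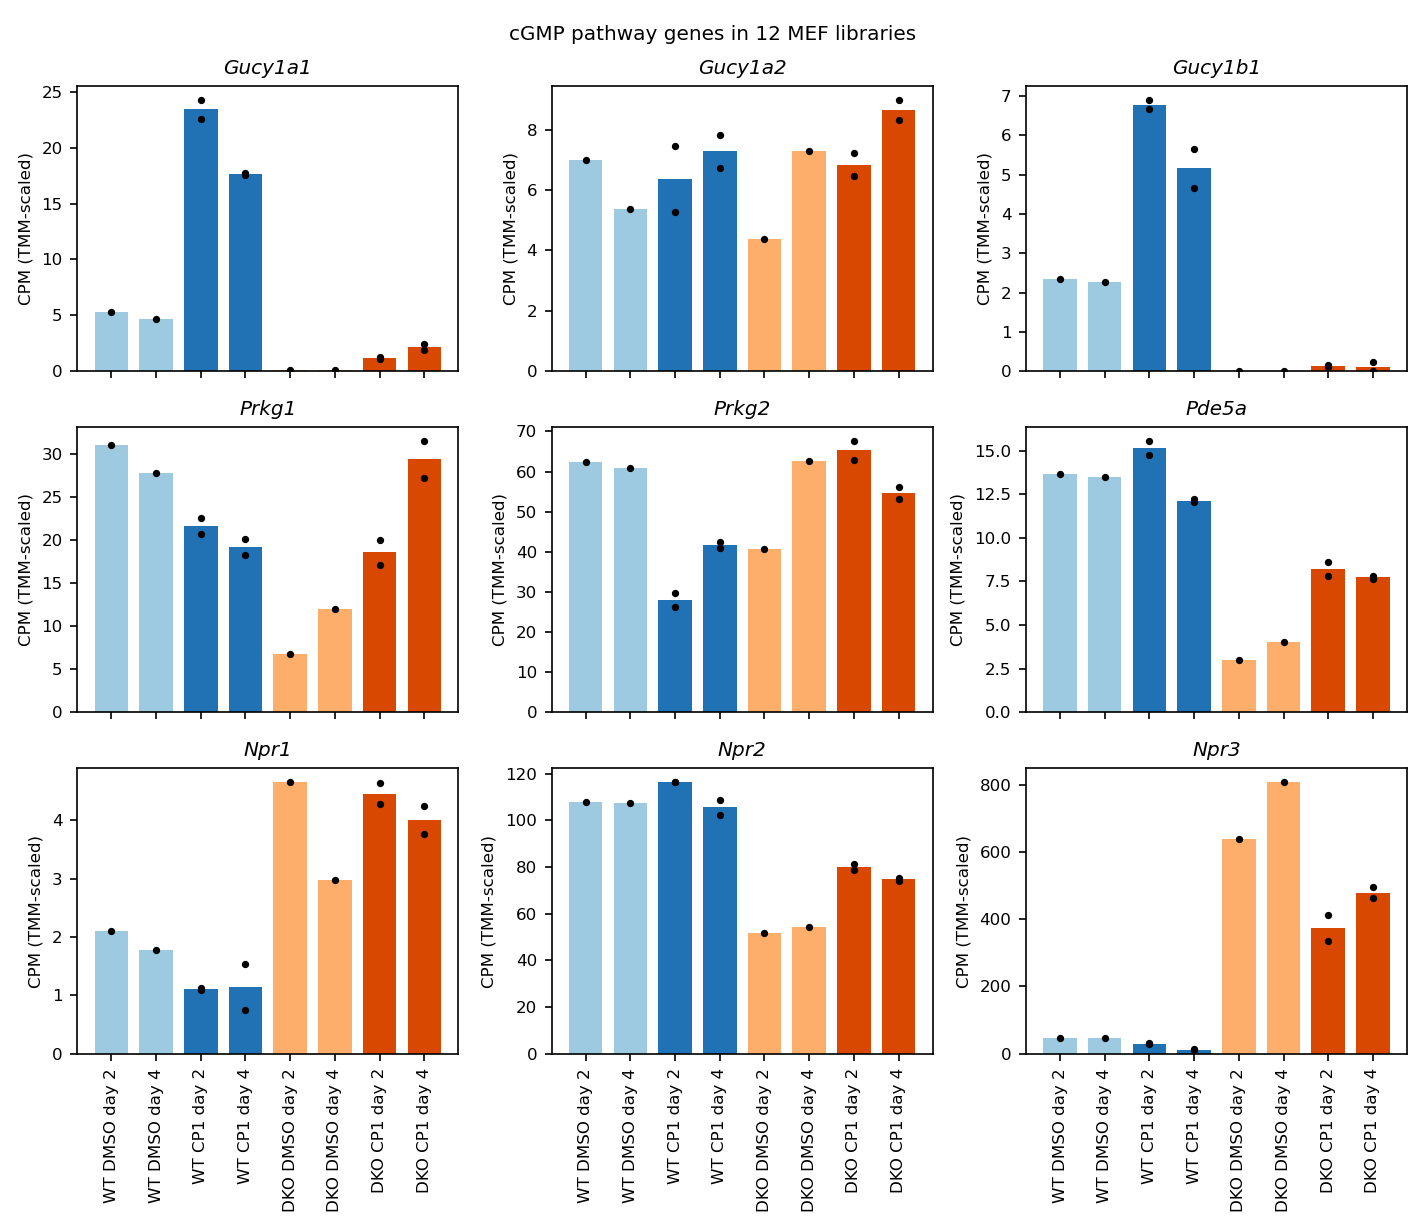
Level (CPM, linear axes from 0) of the 9 genes in the 8 groups; bars are group means and points are single libraries, 2 in each CP1 group and 1 in each DMSO group. Npr3 and Npr1 stand higher in DKO, Gucy1a1, Gucy1b1, Pde5a and Npr2 higher in WT, and Prkg1 is lower under CP1 in WT and higher under CP1 in DKO.

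Among the receptors, the balance between signalling and clearance genes was reversed between the genotypes. Npr2, the receptor of C-type natriuretic peptide, stood at 108 CPM in both WT DMSO libraries and at 116, 116, 109 and 102 CPM in WT CP1. DKO DMSO held 51.9 and 54.1 CPM, and DKO CP1 held 78.7, 81.5, 74.1 and 75.5 CPM. All WT libraries were above all DKO CP1 libraries, and these were above DKO DMSO. Npr2 was lower in DKO by -1.02 in DMSO (SE 0.08, adjusted p = 1.43e-07) and by -0.52 under CP1 (SE 0.06, adjusted p = 3.65e-06). CP1 raised it in DKO (0.55, SE 0.07, adjusted p = 3.73e-05). In WT the value was 0.04 (SE 0.07, adjusted p = 0.759), and the difference of effects was 0.51 (SE 0.10, adjusted p = 0.00117). Gm12473, an antisense gene over Npr2, was at 5.09 to 12.4 CPM, and without strand its reads cannot be told apart from those of Npr2.

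Npr3, the clearance receptor, stood at 47.8 and 47.6 CPM in WT DMSO. WT CP1 held 30.7 and 29.0 CPM at day 2 and 13.1 and 11.0 CPM at day 4. DKO DMSO held 640 CPM at day 2 and 808 CPM at day 4, and DKO CP1 held 413 and 336 CPM at day 2 and 495 and 462 CPM at day 4. The lowest DKO library was thus above the highest WT library, and within each genotype CP1 libraries were below DMSO libraries. Npr3 was higher in DKO by 3.87 in DMSO (SE 0.31, adjusted p = 9.97e-06) and by 4.45 under CP1 (SE 0.23, adjusted p = 7.93e-07) on the log2 scale.

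CP1 lowered Npr3 in WT (-1.35, SE 0.25, adjusted p = 0.00841) and in DKO (-0.76, SE 0.23, adjusted p = 0.0248). The WT value was -0.68 without the WT DMSO library of day 4 and -1.98 without that of day 2. These are the CP1 effects of day 2 and of day 4, since CP1 and DMSO share 1 day term. The ratio of CP1 to DMSO in CPM was 0.623 at day 2 and 0.253 at day 4 in WT. The WT call was lost when only the WT libraries were fitted (-1.32, adjusted p = 0.093). The DKO call was lost with scaling by library totals only (-0.54, adjusted p = 0.0987). It was also lost without DKO CP1 day 2 repeat 2 (-0.70, adjusted p = 0.0597), DKO CP1 day 4 repeat 2 (-0.74, adjusted p = 0.0553), the DKO DMSO library of day 2 (-0.75, adjusted p = 0.154) or that of day 4 (-0.77, adjusted p = 0.129). The difference of the effects was 0.59 (SE 0.35, adjusted p = 0.22). It was 1.22 (adjusted p = 0.000288) without the WT DMSO library of day 2 and -0.08 (adjusted p = 0.747) without that of day 4.

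Per kilobase of exon the ratio of Npr3 to Npr2 was 0.220 in both WT DMSO libraries and 0.0533 to 0.131 in WT CP1. It was 6.13 and 7.42 in DKO DMSO and 2.05 to 3.32 in DKO CP1. Npr2 was thus the higher gene in all 6 WT libraries and Npr3 in all 6 DKO libraries. CP1 libraries had the lower ratio in each genotype, without overlap.

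**Figure D4:**
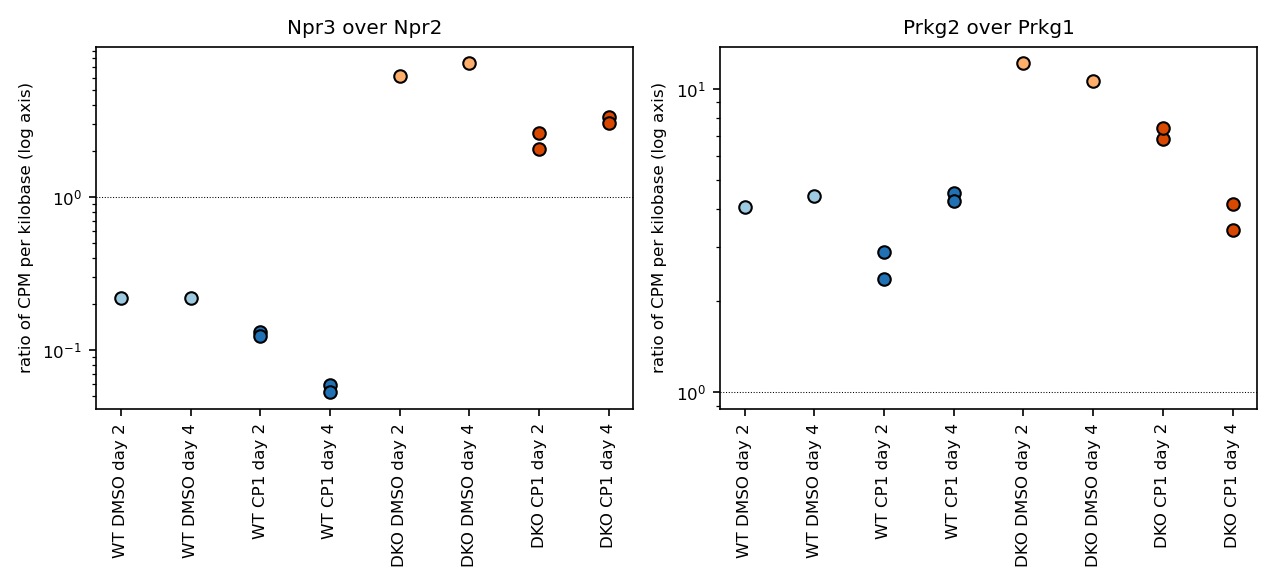
Ratio of Npr3 to Npr2 and of Prkg2 to Prkg1 (each as CPM per kilobase of exon, log axis) in each of the 12 libraries by group; the dotted line marks a ratio of 1. The Npr3 to Npr2 ratio is below 1 in all WT libraries and above 1 in all DKO libraries.

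Npr1, the receptor of atrial and B-type natriuretic peptides, was the lowest of the receptors, at 2.10 and 1.77 CPM in WT DMSO and 1.09, 1.12, 1.54 and 0.740 CPM in WT CP1. DKO DMSO held 4.66 and 2.98 CPM, and DKO CP1 held 4.28, 4.63, 3.77 and 4.25 CPM. Every DKO library was above every WT library. Under CP1 the log2 difference between DKO and WT was 1.90 (SE 0.21, adjusted p = 4.69e-06). In DMSO it was 0.96 (SE 0.29, adjusted p = 0.0101), and the call was lost without the WT DMSO library of day 4 (0.82, adjusted p = 0.102) or the DKO DMSO library of day 2 (0.69, adjusted p = 0.109).

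CP1 minus DMSO for Npr1 was -0.78 in WT (SE 0.28, adjusted p = 0.0698) and 0.16 in DKO (SE 0.23, adjusted p = 0.589). The WT value passed the threshold without WT CP1 day 4 repeat 1 (-1.05, adjusted p = 0.0183) or without the DKO DMSO library of day 2 (-0.79, adjusted p = 0.0306) or day 4 (-0.78, adjusted p = 0.0298), which bear on the common spread. The difference of effects was 0.94 (SE 0.36, adjusted p = 0.051), and 1.21 without WT CP1 day 4 repeat 1 (adjusted p = 0.0113) or without the DKO DMSO library of day 2 (adjusted p = 0.0253).

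Between day 2 and day 4 of CP1, 1 of the 8 genes other than Gucy1a1 rose and 1 fell in WT, against 15.3% of all genes called (7.0% higher, 8.26% lower). The libraries of 6 did not overlap between days, as for 57.3% of all genes. Npr3 fell by 1.31 on the log2 scale (SE 0.16, adjusted p = 0.00432) and Prkg2 rose by 0.57 (SE 0.07, adjusted p = 1.64e-06). As a description, the value of Gucy1a1 was -0.41 (SE 0.11). Without DKO CP1 day 2 repeat 1 or repeat 2, 4 genes were called in WT, with Pde5a (-0.32, adjusted p = 0.0278 and 0.028) and Npr2 (-0.14, adjusted p = 0.0103 in both) besides. Without the DKO DMSO library of day 2 or day 4, Pde5a alone was added (-0.32, adjusted p = 0.0485 and 0.0476).

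In DKO 1 of the 8 genes rose and 1 fell from day 2 to day 4, against 24.2% of all genes called (12.1% higher), and 6 did not overlap, as for 57.9% of all genes. Prkg1 rose by 0.66 (SE 0.10, adjusted p = 2.08e-05), and its DMSO level was also higher at day 4. The value of Gucy1a1, a description, was 0.86 (SE 0.27). Prkg2 fell by 0.25 (SE 0.07, adjusted p = 0.00684), a call lost without day 4 repeat 2 (-0.22, adjusted p = 0.0891). Without day 4 repeat 2 the count called was 1. Npr3 changed by 0.36 (SE 0.11, adjusted p = 0.073), and passed without DKO CP1 day 2 repeat 1 (0.51, adjusted p = 2.65e-12) or repeat 2 (0.21, adjusted p = 0.000452), and without WT CP1 day 2 repeat 2 (adjusted p = 0.0485), day 4 repeat 1 (adjusted p = 0.0155) or day 4 repeat 2 (adjusted p = 0.0138), each at 0.36. Over the 9 genes the signs of the day differences were mixed in both genotypes.

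The wider pathway was read from a list of 62 genes, of which 61 were in the table, 34 were tested and 27 were below the filter, at most 0.646 CPM in any library. The peptide genes Nppa, Nppb and Nppc and the nitric oxide synthases Nos1 and Nos3 were all among the latter, so that these ligand and synthase genes were near 0 in the cultures. In DKO against WT in DMSO 10 of the 34 were higher and 15 lower (32.7 and 34.8% of all genes), with a median log2 difference of -0.37 against -0.06 over all genes. Under CP1, 5 were higher and 16 lower in DKO (28.9 and 30.6% of all genes), with a median of -0.14 against -0.01. CP1 raised 6 and lowered 5 in WT (7.5 and 10.3% of all genes), with a median of 0.03 against 0.01. In DKO it raised 10 and lowered 9 (24.2 and 27.6% of all genes), with a median of 0.00 against 0.02. The CP1 effect was higher in DKO for 9 and lower for 10 (20.1 and 22.3% of all genes), with a median of -0.19 against 0.01. From day 2 to day 4, 3 rose and 2 fell in WT (7.0 and 8.26% of all genes; median -0.09 against 0.00). In DKO 3 rose and 10 fell (12.1% of all genes rose and 24.2% changed in either direction; median -0.14 against 0.00).

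Of the genes that supply nitric oxide synthesis, Gch1, the first enzyme of tetrahydrobiopterin synthesis, was at 42.2 ± 1.21 CPM (SD, n = 2) in WT DMSO and 2.48 ± 0.379 CPM (SD, n = 2) in DKO DMSO (-4.10, SE 0.26, adjusted p = 5.94e-08). CP1 lowered it in WT (-1.03, SE 0.17, adjusted p = 0.00123). Ddah1, which degrades the synthase inhibitor dimethylarginine, was higher in DKO in DMSO (1.31, SE 0.10, adjusted p = 1.02e-07), and CP1 lowered it there (-1.14, SE 0.08, adjusted p = 2.73e-07). Spr, a later enzyme of tetrahydrobiopterin synthesis, was higher in DKO in DMSO (1.07, SE 0.08, adjusted p = 5.81e-08). Ass1, of arginine synthesis, fell under CP1 in DKO (-1.13, SE 0.06, adjusted p = 2.57e-08), and Ddah2 rose under CP1 in WT (0.33, SE 0.06, adjusted p = 0.00237). Nos2, the inducible synthase, named after its values were seen, was at 11.0 and 12.2 CPM in WT DMSO, 1.26 to 1.83 CPM in WT CP1, 1.11 and 2.51 CPM in DKO DMSO and 1.34 to 12.4 CPM in DKO CP1.

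Of the targets, Rgs2, a regulator of G protein signalling that the kinase phosphorylates, rose under CP1 in WT from 4.49 ± 0.401 CPM (SD, n = 2) to 11.6 ± 3.22 CPM (SD, n = 4), a change of 1.34 (SE 0.20, adjusted p = 0.000416). Under CP1 it was lower in DKO (-3.75, SE 0.20, adjusted p = 4.1e-09). Vasp, an actin regulator and kinase substrate, fell under CP1 in DKO (-0.81, SE 0.07, adjusted p = 8.29e-07), and its CP1 effect was lower there than in WT (-0.99, SE 0.10, adjusted p = 6.97e-06). Under CP1 Pde1a, a calmodulin-dependent phosphodiesterase, was lower in DKO (-2.11, SE 0.15, adjusted p = 5.79e-08) and Cngb1, a channel subunit gated by cyclic nucleotides, was higher (3.03, SE 0.21, adjusted p = 5.96e-08). From day 2 to day 4 of CP1, Mme, the neprilysin that degrades natriuretic peptides, rose in DKO (0.62, SE 0.05, adjusted p = 5.11e-10). Gch1 (-1.16, SE 0.23, adjusted p = 0.000509) and Csrp2, listed among the kinase partners (-0.59, SE 0.09, adjusted p = 2.69e-05), fell in DKO over these days. Hspb6, a small heat shock protein, rose in WT (0.25, SE 0.05, adjusted p = 0.000727).

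The 5 genes outside the group whose log2 CPM followed that of Gucy1a1 most closely over the 12 libraries were S1pr3 (Pearson r 0.989), Fap (0.989), Dhrs3 (0.987), Bbs1 (0.985) and Fuz (0.982). These correlations are a description, since the libraries share the same 8 groups. Over the 8 group means 3 of these 5 were again among the first 5. S1pr3, a sphingosine-1-phosphate receptor, was at 66.1 and 66.8 CPM in WT DMSO, 86.4 to 115 CPM in WT CP1, 11.0 and 11.9 CPM in DKO DMSO and 24.1 to 34.7 CPM in DKO CP1. Fap, a fibroblast surface protease, was at 5.14 and 5.76 CPM, 12.8 to 18.2 CPM, 0 and 0.538 to 2.09 CPM in the same order. Among the other 8 genes the closest to Gucy1a1 were Npr2 (r 0.948, rank 144 of 16594), Pde5a (0.929, rank 328) and Gucy1b1 (0.928, rank 342), and the farthest was Npr3 (-0.903, rank 15565).

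Soluble cyclase is also a gene of pericytes and smooth muscle, so their markers were read beside it. In bulk RNA, fewer cells of a type and less RNA per cell cannot be told apart. The 14 mural and smooth muscle markers summed to 1189 to 1214 CPM in WT DMSO, 1498 to 1796 in WT CP1, 1154 to 1270 in DKO DMSO and 888 to 992 in DKO CP1, led by Acta2. The single markers did not move together. Of the 11 that reached 1 CPM, 5 had all CP1 libraries above DMSO in WT and 1, Pdgfrb, had them below. In DKO 3 were above (Cspg4, Notch3 and Lmod1) and 4 below. Over all genes tested the CP1 and DMSO libraries did not overlap for 46.0% in WT and 55.0% in DKO. The counts of these mural and smooth muscle markers lie near those shares. Acta2 was at 616 to 628 CPM in WT DMSO, 983 to 1203 CPM in WT CP1, 789 to 837 CPM in DKO DMSO and 394 to 448 CPM in DKO CP1. Lmod1, higher under CP1 in both genotypes as Gucy1a1 was, stood at 14.6 to 15.8, 17.4 to 28.6, 1.86 to 1.87 and 2.40 to 3.89 CPM in the same order. Pdgfrb stood at 281 to 290, 177 to 214, 183 to 234 and 233 to 256 CPM. The pericyte markers Kcnj8, Abcc9 and Higd1b were below 1 CPM in all 12 libraries. The summed level of the 12 fibroblast markers was lowest in DKO DMSO, as was Gucy1a1. In WT, however, the sum was lower under CP1 while Gucy1a1 was higher. Of the 12, 3 had all CP1 libraries above DMSO in WT and 9 below, against 46.0% of all genes not overlapping in either direction. In DKO 10 were above and 0 below, against 55.0% of all genes. The part of these marker differences in the Gucy1a1 values was not tested.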

How the data were processed

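The deposited counts are whole numbers per gene, made with featureCounts 1.5.2 on mm10 per the submitters' processing notes. The aligner and strand setting are not given in the sources used here. The deposited TPM values are the authors' counts over gene length rescaled per library, as was checked, and served as an alternative only. Library totals are given above, and a gene under 1 CPM rests on few reads.

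Of 32168 genes, edgeR 4.0.16 (R 4.3.3) kept 16595 (filterByExpr with a minimum count of 10 and minimum total of 15), among them all 9. Counts took TMM factors and went into edgeR's robust quasi-likelihood test, with Benjamini-Hochberg adjustment over all genes and a threshold of 0.05. Genotype and CP1 comparisons used 4 means with a day term per genotype (6 residual degrees of freedom), which makes the DMSO libraries of both days repeats. Day comparisons used 8 group means (4 residual degrees of freedom), where the spread of a single DMSO library is taken from the CP1 groups. SE is the log2 fold change over the square root of F. Fits were also run on simulated counts with a coefficient of variation of 0.05 between libraries. In the data it was 0.0984 in the fit with day terms, so the simulation was less noisy and gives no error rate for these data. Floors are 3 counts over a group, and ratios of counts carry exact 95% intervals.

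The members and lists were chosen with earlier results of these data known. Named genes are the 9, Lats1 and Lats2, up to 3 called genes of the wider list per comparison by smallest p, of which most are described, and the 5 most correlated with Gucy1a1. Map9, Tdo2, Nos2, Acta2, Lmod1 and Pdgfrb came in addition. Gucy1a1 is left out of all tests and counts. Gucy1b1 is left out of DKO minus WT in DMSO and under CP1. Both choices were made after the data were seen. Gucy1b1 stays in CP1 minus DMSO in DKO and in the difference of CP1 effects, where its DKO values rest on 9 counts against 0. Days of the WT DMSO libraries rest on titles and column names. These libraries differed by more than sampling noise and count as 2 samples. Alternatives were DESeq2 1.42.0 size factors and test, library totals only, limma 3.58.1 on log2(TPM + 1) and log2(TPM + 0.1), no filter, other designs, each library left out and a replicate block.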

Additional observations from a re-analysis of the deposited data

Results flagged for a closer look

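The CP1 effect differed between the genotypes, by a test of the difference itself over all 12 libraries, for 4 of the 8 genes tested, near the 42.4% of all genes called (20.1% higher). The log2 difference, DKO minus WT, was 1.89 for Prkg1, 1.07 for Prkg2, 1.18 for Pde5a and 0.51 for Npr2. For Prkg1 the CP1 libraries lay below DMSO in WT and above DMSO in DKO. For Prkg2 the fall in WT carried most of the difference, and for Pde5a and Npr2 the rise in DKO did. No library stood far from its group in the 18 sets of 4 CP1 libraries (9 genes in each genotype) examined for that. Each set holds both days, so differences between days widen its spread and a deviating library can be missed. Over all genes WT CP1 day 2 repeat 2 stood apart from the other WT CP1 libraries (chi-square 50.57, 61.35 and 60.41 per degree of freedom). Day 2 repeat 1 was closer to those of day 4 (19.3 and 20.44).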

How the results depend on the processing

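Without each library in turn the genes called numbered 4 to 6 for DKO minus WT in DMSO, 2 to 5 for CP1 in WT, 3 to 5 for CP1 in DKO, 5 to 6 for DKO minus WT under CP1, 4 to 5 for the difference of CP1 effects, 2 to 4 for days in WT and 1 to 3 for days in DKO. The counts over all genes also changed with the library left out. With 8 group means 7 genes instead of 4 were called for CP1 in DKO. Of all genes 5063 were then called higher and 5325 lower, against 4023 and 4585 in the main fit. Day calls in WT were 1 with either TPM setting and 4 with only the libraries compared, against 2, and in DKO 1 with DESeq2 and 0 with limma on either TPM setting (2 at an unadjusted p under 0.05 in each), against 2.

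No call of a single gene turned its direction under any alternative run, but some were lost. With log2(TPM + 1) and log2(TPM + 0.1), adjusted p was 0.146 and 0.22 for Npr3 under CP1 in DKO, 0.0826 and 0.15 for Npr1 in DMSO between genotypes, 0.0525 and 0.053 for Npr2 between genotypes under CP1, 0.0794 and 0.115 for Prkg1 and 0.665 and 0.667 for Prkg2 over days in DKO, and 0.282 and 0.287 for Prkg2 over days in WT. With the second setting it was 0.11 for Gucy1b1 under CP1 in WT and 0.0513 for Pde5a between genotypes under CP1. With DESeq2 it was 0.059 for Prkg2 over days in DKO. Losses of Npr3 with other fits stand in the report. Other values passed only under an alternative. For Gucy1a2 under CP1 in DKO adjusted p was 0.0134 with library totals only, 0.0183 and 0.0243 with TPM, 0.0435 without a filter and 0.0156 with 8 means. Apart from libraries left out, Prkg1 between genotypes under CP1 passed with library totals only, both TPM settings, 8 means, only the libraries compared and the replicate block, and Npr1 in the difference of effects with 6 settings (adjusted p = 0.0176 to 0.0475). Without a filter and with 8 means Npr3 in the difference of effects, Npr1 under CP1 in WT, Gucy1b1 under CP1 in DKO and Prkg2 in DMSO between genotypes passed. Prkg2 in DMSO between genotypes also passed with both TPM settings, and Prkg2 under CP1 in DKO with both TPM settings and 8 means. With only the libraries compared Pde5a and Npr2 over days in WT and Npr3 over days in DKO passed, the last also without a filter.

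Repeat numbers did not pair the libraries: differences between repeats correlated at -0.04 to 0.017 between groups. With the replicate block 4 genes were called for days in WT, and Prkg1 under CP1 (0.20, adjusted p = 0.00686) and Npr3 over days in DKO (0.36, adjusted p = 5.48e-10) passed.

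Reversed values, none called in the report, were as follows. With log2(TPM + 1) and log2(TPM + 0.1), CP1 in WT was -0.04 and -0.04 for Gucy1a2 and -0.15 and -0.15 for Npr2, days in WT were -0.07 and -0.17 for Npr1, and the difference of CP1 effects was -0.73 (adjusted p = 0.0307) and -0.15 for Gucy1b1 and -0.69 (first setting) for Gucy1a1, where the pseudocount shrinks ratios near 0. Pde5a under CP1 in WT was 0.09 with library totals only and 0.01 without a filter. With 1 library left out, DKO minus WT in DMSO ran from -0.39 to 0.19 for Gucy1a2 and -0.73 to 0.13 for Prkg2. CP1 in WT ran from -0.13 to 0.44 for Gucy1a2, -0.15 to 0.15 for Pde5a and -0.03 to 0.11 for Npr2, and CP1 in DKO from -0.19 to 0.68 for Prkg2 and -0.06 to 0.43 for Npr1. The difference of effects ran from -0.01 to 0.56 for Gucy1a2 and -0.08 to 1.22 for Npr3, and days from -0.04 to 0.47 for Gucy1a2 and -0.58 to 0.47 for Npr1 in WT and -4.60 to 0.69 for Gucy1b1 in DKO, which has 9 counts there.

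Over all genes, CP1 in WT gave 2954 calls, 1853 and 1626 with the TPM settings, 5987 with 8 means, 5197 with only the libraries compared and 1283 to 5257 with 1 library left out. Days in WT gave 2532 calls, 1203 with DESeq2, 602 and 525 with TPM and 1172 at the lowest with 1 library left out; days in DKO gave 4012, 2133, 769 and 680, and 2179. Library totals only moved the all-gene median of CP1 in DKO from 0.02 to 0.24, with 5984 higher and 2707 lower instead of 4023 and 4585, and turned 1244 and 1710 into 2297 and 1307 in WT. The cause was not tested.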
